A study of Homo sapiens with 2 samples.

Results

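The genes described here are 10 negative feedback genes of the mitogen-activated protein kinase (MAPK) pathways: 6 dual-specificity phosphatases (DUSP1, DUSP4, DUSP5, DUSP6, DUSP7 and DUSP10), the Sprouty genes SPRY2 and SPRY4, and the Sprouty-related genes SPRED1 and SPRED2. They were chosen by gene symbol, with earlier results of these data known. All 10 were found among the 11678 genes listed for the siYBX1 library and the 13017 listed for the siNC library. The siYBX1 library came from breast cells of the line labelled 231 in which YBX1 was knocked down by transfection with an siRNA, called a Smart Silencer in the design text. The siNC library came from the same line transfected with a control reagent that the labels name only siNC, and the design text gives 48 h as the time of sampling. Both cultures grew in L15 medium with serum. There was 1 library per group, so no difference below has a replicate check and none carries a p-value or a standard deviation.

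In the MAPK pathways, growth factor receptors and RAS activate the kinase chain RAF, MEK and ERK, and stress or cytokine signals activate the related kinases JNK and p38. Active ERK induces transcription of genes that switch the pathway off again. The DUSP phosphatases remove the activating phosphates from threonine and tyrosine of MAPKs, Sprouty proteins act upstream between receptor and RAF, and SPRED proteins bring the RAS inactivator neurofibromin to the membrane. MDA-MB-231, the line usually meant by the short name 231 although the labels give only that short name, is an invasive breast cancer line.

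YBX1, the targeted gene, stood at 38.1 FPKM after siYBX1 and 649 FPKM after siNC. FPKM are fragments scaled to transcript length and library size, so levels of different genes can be set side by side within a library, while the read numbers behind them are unknown. The mesenchymal markers VIM, AXL, CD44, CAV1 and MSN were all listed in both libraries, VIM at 249.7 FPKM in the siYBX1 library and 201 FPKM in the siNC library, and the other four within 2-fold as well. Of the luminal genes, ESR1 and PGR were in neither table and FOXA1 was listed only for siNC, whereas GATA3 was at 2.14 FPKM in the siYBX1 library and 2.34 FPKM in the siNC library, and ERBB3 at 1.29 FPKM after siYBX1 and 0.935 FPKM after siNC. Of the epithelial genes, the cadherin CDH1 was listed only for siNC, at 0.0668 FPKM, but the keratins KRT18 (57.2 FPKM after siYBX1, 64.2 FPKM after siNC) and KRT8 (27.7 FPKM after siYBX1, 74.7 FPKM after siNC, difference -1.40) and the adhesion gene EPCAM (5.10 FPKM after siYBX1, 8.22 FPKM after siNC) were in both tables. Of 10 hepatocyte markers, 8 were listed only in the siNC table, among them ALB at 10.4 FPKM, and the summed level of the list was 40.0 FPKM in the siYBX1 library, all of it SERPINA1, against 60.1 FPKM in the siNC library. Leukocyte markers summed to 18.1 FPKM in the siYBX1 library and 41.8 FPKM in the siNC library over the 3 of 6 that were listed, mostly CD68, with PTPRC and CD3E in neither table. Fibroblast markers summed to 5.88 FPKM in the siYBX1 library and 1.21 FPKM in the siNC library over the 2 of 5 listed, and of 4 endothelial markers only KDR was listed, at 0.645 FPKM in the siNC library. Of the 13219 genes listed in either table, 1541 were listed only for siNC and 202 only for siYBX1, by a rule not given. A gene listed for 1 library only was thus not taken as lost in the other. The part of the cell type markers in the differences below was not tested.

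DUSP5 and DUSP1 were higher in the siYBX1 library, and the other 8 feedback genes lay within 2-fold of their siNC level. The siNC library held the 10 genes in a narrow band from 7.28 to 14.3 FPKM. In the siYBX1 library they ranged from 6.45 to 37.0 FPKM, and without DUSP5 and DUSP1 from 6.45 to 12.4 FPKM. Differences are on the log2(FPKM + 1) scale, siYBX1 minus siNC, for genes present in both tables whose values averaged 1 FPKM or more. A difference of 1 or more, 2-fold on this scale, was counted as higher. On this count 2 of the 10 members were higher, where 7.20% of all 10548 genes compared were, and 0 were lower, where 5.62% were. Because the members were chosen with earlier results known, these shares are description only. With both libraries scaled to the same summed FPKM the members' counts were the same, the shares of all genes were 5.30% higher and 7.65% lower, and the median of all genes was -0.10. As deposited, the median difference was 0.07 over the 10 members and 0.02 over all genes compared. In RNA from whole cultures, a change in the number of cells that express a gene and a change in RNA per cell cannot be told apart.

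**Figure D1:**
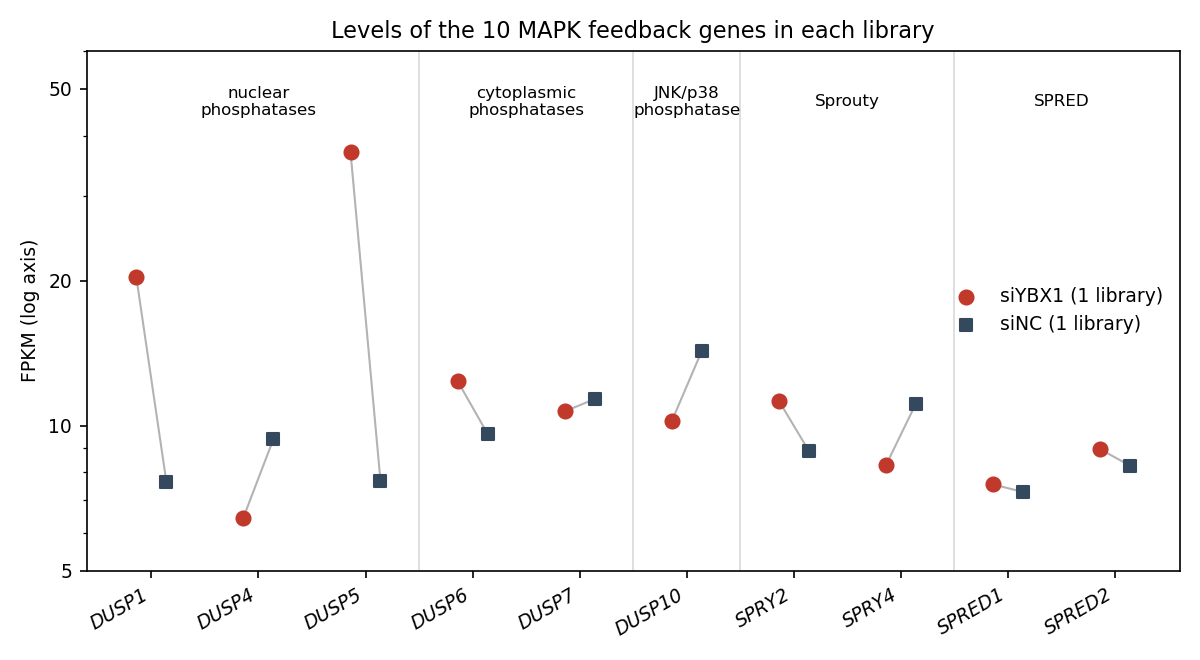
FPKM of each feedback gene (log axis) in the siYBX1 library (circles) and the siNC library (squares), grouped by role, with a line joining the 2 values of a gene; there are no error bars because each group is 1 library. DUSP5 at 37.0 FPKM and DUSP1 at 20.3 FPKM in the siYBX1 library stand above the other points, all of which lie between 6.45 and 14.3 FPKM.

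DUSP1, DUSP4 and DUSP5 encode phosphatases that act in the nucleus and whose transcription is induced by MAPK signalling. DUSP5 (ENSG00000138166.5_2), which is selective for ERK and can hold it in the nucleus, was at 37.0 FPKM in the siYBX1 library and 7.67 FPKM in the siNC library. It was 4.82-fold higher by the plain ratio, a difference of 2.13 in log2(FPKM + 1). Of the 10548 genes compared, 45 had a larger positive difference, or 0.427%. DUSP5 thus had the highest level of the 10 members in the siYBX1 library, whereas it was the 8th of them in the siNC library.

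DUSP1 (ENSG00000120129.5_2), an immediate early gene whose product acts on p38, JNK and ERK, was at 20.3 FPKM in the siYBX1 library and 7.65 FPKM in the siNC library. The plain ratio was 2.65 and the difference 1.30, and 3.52% of the genes compared had a larger one. The levels of DUSP1 and DUSP5 were nearly the same in the siNC library, but DUSP5 was 1.82 times DUSP1 in the siYBX1 library. Among genes with a mean of 5 to 20 FPKM, where DUSP1 lies, 7.46% were at least 2-fold higher, and among those of 20 to 100 FPKM, where DUSP5 lies, 10.7% were. DUSP4 (ENSG00000120875.8_2), the third nuclear enzyme, acts on ERK and JNK and was at 6.45 FPKM in the siYBX1 library and 9.38 FPKM in the siNC library. Its difference of -0.48 was the most negative among the members but within 2-fold, and 20.5% of the genes compared had a more negative one. DUSP4 was the lowest member in the siYBX1 library and the 5th in the siNC library.

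The promoter sequence of DUSP1 is shown because DUSP1 was one of the higher members, beside that of SPRY2, a member that lay within 2-fold. RefSeq promoter windows on build GRCh38.p14 were matched by symbol for 8 of the 10 members, all but DUSP4 and DUSP5, in 12 windows. The 250 bases before the transcription start were searched on both strands for TGACG (the core of the cAMP response element, CRE), TGACTCA (the AP-1 site), CCGGAA (an ETS site) and the SRF-binding CArG box. Capitals mark matches to these motifs, and the SPRY2 window is that of its most upstream start.
DUSP1, chr5:172771196-172771445, minus strand: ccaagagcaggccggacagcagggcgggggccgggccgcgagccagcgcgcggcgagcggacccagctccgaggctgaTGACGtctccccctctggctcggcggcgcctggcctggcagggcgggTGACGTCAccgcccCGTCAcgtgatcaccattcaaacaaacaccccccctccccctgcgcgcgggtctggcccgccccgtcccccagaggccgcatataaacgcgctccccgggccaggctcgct
SPRY2, chr13:80341127-80341376, minus strand: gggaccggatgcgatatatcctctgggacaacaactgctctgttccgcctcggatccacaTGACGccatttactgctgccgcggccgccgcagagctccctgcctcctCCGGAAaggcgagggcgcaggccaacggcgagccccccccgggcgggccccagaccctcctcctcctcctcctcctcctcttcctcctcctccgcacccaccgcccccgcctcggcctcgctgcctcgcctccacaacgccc
The DUSP1 window held 4 matches to TGACG, at 172 to 168, 125 to 121, 122 to 118 and 111 to 107 bases before the start, the middle pair overlapping on opposite strands. The SPRY2 window held 1 match to TGACG and 1 to CCGGAA. Of 35116 windows of this length, 21.2% held at least 1 match to TGACG and 0.236% at least 4, while 14.5% held CCGGAA, 4.20% TGACTCA and 1.16% a CArG box. The SPRY4 window held 1 match to TGACG, and the windows of DUSP6, DUSP7, DUSP10, SPRED1 and SPRED2 and the other two of SPRY2 held no match to any of the 4 motifs. No member window held TGACTCA or a CArG box. A match describes the letters only, and the data hold no measure of binding there.

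DUSP6 and DUSP7 encode cytoplasmic phosphatases selective for ERK, and DUSP6 is among the genes most used as a readout of ERK activity. DUSP6 (ENSG00000139318.7_2) was at 12.4 FPKM in the siYBX1 library and 9.62 FPKM in the siNC library, a difference of 0.33. An antisense gene, AC024909.2, overlaps exons of DUSP6 in GENCODE 29 and is in neither table; since the handling of strand is not given in the sources used here, its reads may be included. No other member shares exons with another gene in that annotation. DUSP7 (ENSG00000164086.9_3) was at 10.7 FPKM in the siYBX1 library and 11.4 FPKM in the siNC library, a difference of -0.08. DUSP10 (ENSG00000143507.17_2), whose product prefers JNK and p38 to ERK, was at 10.2 FPKM in the siYBX1 library and 14.3 FPKM in the siNC library, a difference of -0.45. It had the highest level of the 10 genes in the siNC library and the 6th in the siYBX1 library. All of these values lay within 2-fold.

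The Sprouty genes stood on opposite sides of their siNC levels, both within 2-fold. SPRY2 (ENSG00000136158.11_3) was at 11.3 FPKM in the siYBX1 library and 8.87 FPKM in the siNC library, a difference of 0.31. SPRY4 (ENSG00000187678.8_3) was at 8.28 FPKM in the siYBX1 library and 11.1 FPKM in the siNC library, a difference of -0.38. Their order was therefore reversed: SPRY2 was 1.36 times SPRY4 in the siYBX1 library and 0.798 times SPRY4 in the siNC library. Summed, the Sprouty genes came to 19.5 FPKM in the siYBX1 library and 19.98 FPKM in the siNC library, although such sums do not add reads because transcript lengths differ.

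SPRED1, DUSP7 and SPRED2 had the 3 differences nearest to 0. SPRED1 (ENSG00000166068.12_3), the gene mutated in Legius syndrome, was at 7.55 FPKM in the siYBX1 library and 7.28 FPKM in the siNC library, a difference of 0.05. SPRED2 (ENSG00000198369.9_3) was at 8.94 FPKM in the siYBX1 library and 8.26 FPKM in the siNC library, a difference of 0.10. The ratio of SPRED1 to SPRED2 was 0.845 after siYBX1 and 0.882 after siNC. When both libraries were scaled to the same summed FPKM, both differences were negative, at -0.08 for SPRED1 and -0.03 for SPRED2, with the median of all genes at -0.10.

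Ratios between members within a library do not depend on how the libraries are scaled. DUSP5 was 2.99 to 5.73 times each of the 8 members other than DUSP1 in the siYBX1 library, and 0.537 to 1.05 times each of them in the siNC library. DUSP1 was 1.64 to 3.15 times each of these 8 in the siYBX1 library, and 0.536 to 1.05 times in the siNC library. Against each of the 8 the ratio was thus higher in the siYBX1 library, by 3.75-fold to 7.01-fold for DUSP5 and by 2.06-fold to 3.86-fold for DUSP1. DUSP1 and DUSP5 made up 43.1% of the summed FPKM of the 10 genes after siYBX1 and 16.0% after siNC. These ratios and shares restate the differences of DUSP5 and DUSP1 and are no separate evidence for them. The remaining 8 genes summed to 75.8 FPKM in the siYBX1 library and 80.2 FPKM in the siNC library, with 4 positive and 4 negative differences from -0.48 to 0.33 and a median of -0.02.

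**Figure D2:**
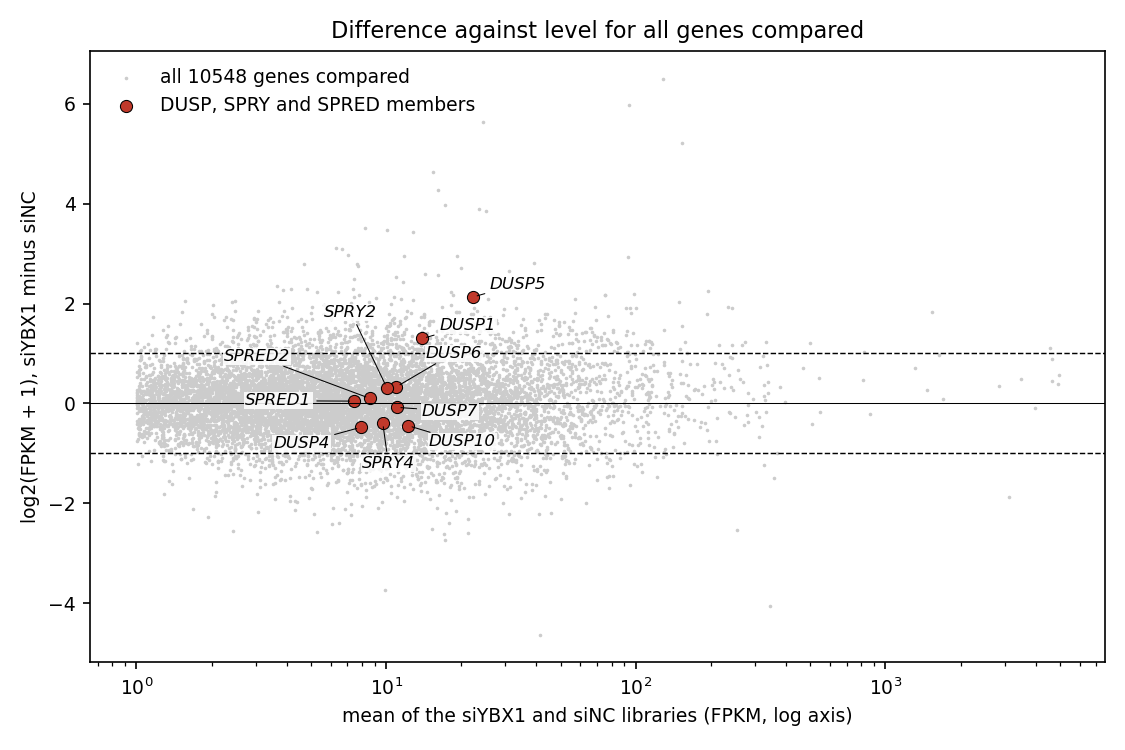
Difference in log2(FPKM + 1), siYBX1 minus siNC, against the mean FPKM of the libraries (log axis) for all 10548 genes compared (grey) and the 10 members (red), with dashed lines at 2-fold. DUSP5 at 2.13 and DUSP1 at 1.30 lie above the upper line and the other 8 members lie between the lines, from -0.48 to 0.33.

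The genes nearest to DUSP5 by Euclidean distance in log2(FPKM + 1) over the 2 libraries were LYPLA2 (distance 0.196), UCHL3 (0.248) and VPS25 (0.262). LYPLA2, the nearest, stood at 36.1 FPKM in the siYBX1 library and 8.91 FPKM in the siNC library. For DUSP4, the member with the most negative difference, they were PDCD2L (0.00894), ZNF830 (0.0122) and DGKZ (0.0128). With 2 libraries this likeness is only one of level.

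The relatives of the members were mostly expressed at lower levels. Of the 8 remaining typical phosphatases, Sprouty and SPRED genes, 7 were listed and 5 could be compared. Of these 5, 2 were at least 2-fold higher and 1 lower in the siYBX1 library. Of all genes compared, 7.20% were higher and 5.62% lower, the shares to set beside each list count below. DUSP8, a phosphatase of JNK and p38, was at 2.73 FPKM in the siYBX1 library and 0.243 FPKM in the siNC library, a difference of 1.59. Of the higher relatives' promoter windows, that of DUSP8 held 4 matches to TGACG. They lay at 118 to 114, 115 to 111, 74 to 70 and 71 to 67 bases before the start, in pairs overlapping on opposite strands. The STYXL1 window held 1 match to TGACG and 1 to CCGGAA, and that of the atypical DUSP14 held 0 to any of the motifs. Windows of the relatives that were lower or within 2-fold were not searched, so no contrast with them is given. STYXL1, a pseudophosphatase without catalytic activity, was at 16.7 FPKM in the siYBX1 library and 4.82 FPKM in the siNC library (difference 1.61). SPRY1 lay on the other side, at 0.178 FPKM in the siYBX1 library and 2.60 FPKM in the siNC library (-1.61). DUSP16 was at 3.49 FPKM in the siYBX1 library and 2.29 FPKM in the siNC library, and SPRED3 at 2.48 FPKM in the siYBX1 library and 3.23 FPKM in the siNC library, both within 2-fold. DUSP2, a nuclear phosphatase best known from immune cells, was under the minimum mean, at 1.10 FPKM in the siYBX1 library and 0.0947 FPKM in the siNC library. DUSP9 was listed only for siNC, at 0.0325 FPKM, and SPRY3 was in neither table. The reads behind these values, and so their error, are unknown.

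Atypical DUSPs lack the MAPK-binding domain, and many act on other substrates. Of 15, 7 could be compared, with a median difference of 0.22. Of these 7, 1 was higher and 1 lower, beside 7.20% and 5.62% of all genes. DUSP14, which acts on signalling adaptors in T cells, was at 37.1 FPKM in the siYBX1 library and 11.8 FPKM in the siNC library (1.57), a siYBX1 level close to that of DUSP5. DUSP3, a small phosphatase of ERK and JNK, was at 7.46 FPKM in the siYBX1 library and 16.4 FPKM in the siNC library (-1.04).

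Most genes of the kinase cascades that the members restrain lay within 2-fold. Of 19 genes of the RAS-RAF-MEK-ERK cascade compared, 1 was higher and 0 lower, with a median of -0.12. The higher one was NRAS, a RAS isoform, at 54.5 FPKM in the siYBX1 library and 25.5 FPKM in the siNC library (1.07). MAPK3, which encodes an ERK kinase, was at 7.998 FPKM in the siYBX1 library and 9.17 FPKM in the siNC library (-0.18). Of 15 genes of the JNK, p38 and ERK5 cascades, 1 was higher, MAP2K3, a kinase that activates p38, at 42.7 FPKM in the siYBX1 library and 18.8 FPKM in the siNC library (1.14), and 0 were lower, with a median of 0.30. Just inside the threshold as deposited lay MAP2K4 (0.99) and MAPK13 (0.99) on the higher side and MAP2K7, an activator of JNK, on the lower (-0.94). The calls of NRAS and MAP2K3 ended when both libraries had the same summed FPKM, at 0.92 and 0.99, while MAP2K7 then counted as lower (-1.06). Beside shares of 7.20% higher and 5.62% lower among all genes, 2 of 8 kinases downstream of the MAPKs were higher and 0 lower (median 0.25). These were MKNK2, which phosphorylates the translation factor eIF4E, at 9.31 FPKM in the siYBX1 library and 1.96 FPKM in the siNC library (1.80), and MAPKAPK3 at 21.6 FPKM in the siYBX1 library and 6.90 FPKM in the siNC library (1.52).

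Genes whose transcription is commonly taken as a readout of ERK activity lay on both sides. Of 14 compared, 6 were at least 2-fold higher, 1 was lower and 7 were within 2-fold, with a median of 0.67. Of all genes compared, 7.20% were higher and 5.62% lower. MYC, a growth-promoting transcription factor, stood at 28.4 FPKM in the siYBX1 library and 3.92 FPKM in the siNC library (2.58), and IER3, an early response gene, at 240.8 FPKM in the siYBX1 library and 58.4 FPKM in the siNC library (2.03). SPHK1, which makes sphingosine-1-phosphate, and the cytokine gene LIF followed with differences of 1.85 and 1.65. The ETS factor ETV4 and the early response factor EGR1 had differences of 1.08 and 1.04, and these 2 calls ended at the same summed FPKM (0.94 and 0.93). The lower gene was FOSL1, which encodes the AP-1 subunit FRA1, at 186.7 FPKM in the siYBX1 library and 531 FPKM in the siNC library (-1.50). PHLDA1 was at 44.9 FPKM in the siYBX1 library and 89.3 FPKM in the siNC library. It lay just within 2-fold (-0.98) and counted as lower at the same summed FPKM (-1.12). Also within 2-fold were EPHA4 (-0.59), CCND1 (-0.54) and ETV5 (-0.15) on the lower side. On the higher side lay EPHA2 (0.30), PLAUR (0.50) and HMGA2 (0.83). FOS was under the minimum mean and was not compared.

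Genes for other proteins that hold RAS and ERK signalling in check did not pass 2-fold on the log2(FPKM + 1) scale. Of 17 compared, 0 were higher and 0 lower (median -0.09). NF1, which encodes the neurofibromin that SPRED proteins recruit, was at 0.991 FPKM in the siYBX1 library and 1.40 FPKM in the siNC library. RASA1, another RAS GTPase activator, was at 16.0 FPKM in the siYBX1 library and 32.6 FPKM in the siNC library (-0.98). At the same summed FPKM RASA1 counted as lower (-1.12). LRIG1 lay on the higher side, at 9.53 FPKM in the siYBX1 library and 4.77 FPKM in the siNC library (0.87). Of 10 genes whose products regulate Sprouty or DUSP proteins, such as the ubiquitin ligase genes CBL and SIAH2, 0 were higher and 0 lower (median -0.08). Over all of these lists, with CBL, MKNK1 and PPP2CA, which stand in 2 lists, counted once, 13 of 92 genes compared were higher and 3 lower, beside 7.20% and 5.62% of all genes. At the same summed FPKM 9 were higher and 6 lower, beside 5.30% and 7.65% of all genes. These lists too were chosen with earlier results of these data known.

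**Figure D3:**
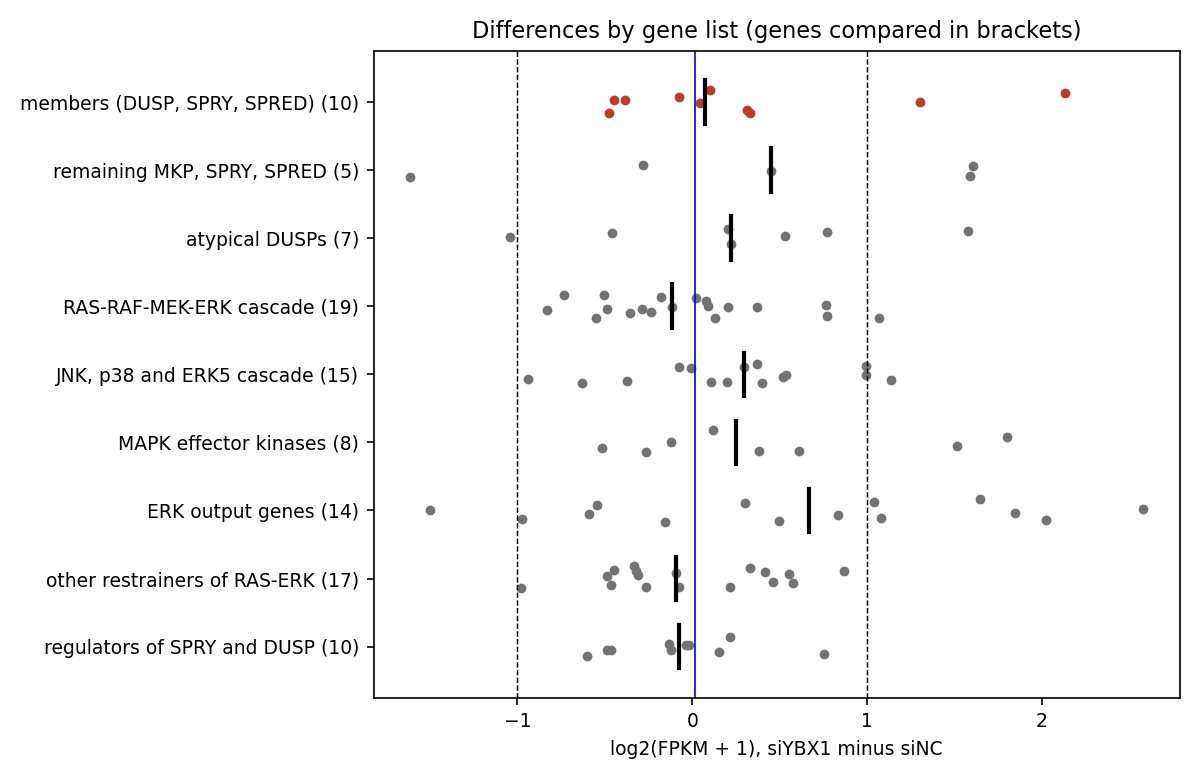
Difference in log2(FPKM + 1), siYBX1 minus siNC, of each gene compared (points) in the members' list (red) and the other pathway lists (grey), with a black bar at the list's median, a blue line at the median of all genes compared (0.02) and dashed lines at 2-fold; the vertical scatter within a row has no meaning. The ERK output genes spread from -1.50 to 2.58, while all 17 other restrainers lie within 2-fold on this scale.

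The members' sides of the 2-fold threshold were the same under the settings tried, some of which could not alter a member's difference. Under 10 alternatives DUSP5 ranged from 1.73 to 2.25 and DUSP1 from 1.00 to 1.40, with the lowest values at a pseudocount of 5 FPKM, where DUSP1 stood at the threshold itself. Transcript length and GC content differed among the members, with longest coding transcripts from 2019 bases for DUSP1 to 7780 bases for SPRED1 in GENCODE 29. With the trend on both removed from all genes, the largest shift among the members was that of SPRED1, to 0.31.

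**Figure D4:**
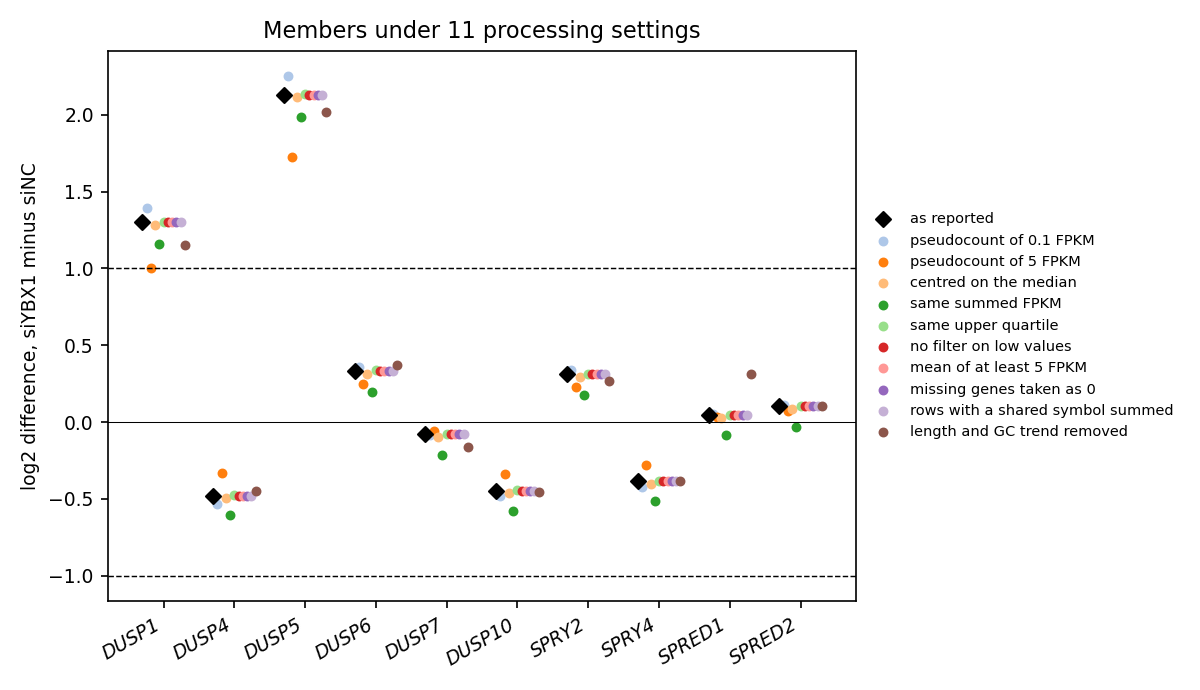
Difference between the siYBX1 and siNC libraries (log2, siYBX1 minus siNC) of each member as reported (black diamonds) and under 10 alternative settings (coloured points), with dashed lines at 2-fold. DUSP5 (1.73 to 2.25) and DUSP1 (1.00 to 1.40) stay at or above the upper line, and the other 8 members stay between the lines in every setting shown.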

How the data were processed

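RNA sequencing was done on 1 library per group (siYBX1 and siNC, grouped by their treatment labels). The authors deposited 1 table per library with FPKM per gene, per the file headers, and no counts. GRCh37, StringTie 1.3.3, HISAT2 2.1.0 and cutadapt 1.17 come from the submitters' processing notes, with no roles; the annotation release, strand handling and listing rule were not given in the sources used here. Low values did not fall on clear whole-read steps, so depth is unknown and no counting interval was computed.

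Tables were joined by gene identifier, and 10548 genes present in both and averaging 1 FPKM or more were compared as log2(FPKM + 1), siYBX1 minus siNC, without a test. A difference of 1 was the threshold. The members and lists were chosen with earlier results of these data known. Named were all members, their listed relatives, up to 4 genes per direction past 2-fold in each other list, and 3 genes nearest to the extreme members. MAPK3, MAPK13, ETV4, EGR1, PHLDA1, MAP2K4, MAP2K7, NF1, RASA1, LRIG1, SIAH2 and some cell type markers were added after their values were seen. CCND1, EPHA2, EPHA4, ETV5, FOS, HMGA2 and PLAUR were added in the same way. Transcript length, GC content and exon overlaps came from GENCODE 29 on GRCh38, used for names and properties only, and promoters from RefSeq. Some genes of these lists are not reported here. The comparison was run on simulated data with small noise and planted changes well past the threshold. That run checked the code only, since it held no low siNC values and no variation between cultures. Python 3.11.15, pandas 2.3.3, numpy 2.4.6 and scikit-learn 1.9.0 were used.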

Additional observations from a re-analysis of the deposited data

How the results depend on the processing

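The alternatives were pseudocounts of 0.1 and 5 FPKM, centring on the median, scaling the siYBX1 library to the siNC library's summed FPKM or upper quartile of shared genes, no minimum mean, a minimum mean of 5 FPKM, genes missing from 1 table taken as 0, rows with a shared symbol summed, and removal of a length and GC trend (cubic splines with 4 knots). All 100 recomputed member differences stayed on the same side of 2-fold, so the counts of 2 higher and 0 lower members held in each of the 10. Both changes of the minimum mean, missing genes taken as 0 and summed symbols could not alter a member's difference. Every member had a single row, was listed for both libraries and averaged more than 5 FPKM. The members' median of 0.07 was -0.057 at the same summed FPKM, where the median of all genes was -0.10, and 0.19 with the length and GC trend removed; changes of up to 0.1 were taken as no change. At the same summed FPKM the other pathway genes counted as lower were 6 in place of 3, and those counted as higher 9 in place of 13. There 559 of all genes compared were higher and 807 lower, 40.9% of calls higher, against 759 and 593 (56.1%) as deposited; the common factor applied to the siYBX1 library was 0.903. The count of higher genes was 1097 at a pseudocount of 0.1 FPKM and 314 at 5 FPKM, with 925 and 209 lower. No paired analysis was possible because each group held 1 library. With no counts, the depth limits on single genes, the low relatives above all, could not be set.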
